A study of Mus musculus with 8 samples.

Results

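The Hox genes described here are the 39 genes of the clusters Hoxa, Hoxb, Hoxc and Hoxd, taken from the 20215 genes of the expression table as every gene named Hox, a cluster letter and a paralog number. Hoxa holds 11 of them, Hoxb 10, Hoxc 9 and Hoxd 9. By paralog number, 12 belong to paralogs 1-4, 15 to paralogs 5-9 and 12 to paralogs 10-13. Wild type (WT) E14 mouse embryonic stem cells (ESCs) and ESCs with a knockout (KO) of Uhrf1 were profiled by mRNA sequencing undifferentiated and after 1, 2 and 3 weeks as embryoid bodies (EBs), the aggregates in which ESCs differentiate. Each of the 8 groups was a single library, the KO was represented by 1 line, and WT and KO cells were handled without any further agent named in the labels. Uhrf1 encodes a protein that binds hemimethylated DNA and recruits the maintenance methyltransferase Dnmt1.

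Hox genes encode homeodomain transcription factors that give body segments, limbs and gut regions their position along the axis from head to tail. Their order on the chromosome matches the order in which they are switched on: low-numbered genes at the 3′ end come first and act in the hindbrain and neck, and high-numbered genes at the 5′ end come last and act in the tail, the distal limb and the genital region. Retinoic acid activates the 3′ genes, Cdx factors with Wnt and Fgf signals activate central and posterior ones, Polycomb proteins hold the clusters silent in stem cells, and TALE homeodomain proteins (Pbx, Meis, Pknox) bind DNA together with Hox proteins. In mouse build mm9 the members spanned positions 52105366 to 52210874 of chromosome 6 for Hoxa, 96055630 to 96229570 of chromosome 11 for Hoxb, 102751534 to 102867274 of chromosome 15 for Hoxc and 74506367 to 74603200 of chromosome 2 for Hoxd. Exons of 18 members overlapped another annotated gene, and the library kept no strand, so for example Hoxa2 and Hoxa3, Hoxb7 and Hoxb8, and Hoxd3 and Hoxd4 can share reads.

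Levels are given as RPKM (reads on a gene divided by its length and by the depth of the library), which can be set against each other between genes. The depth estimated from the smallest step of the values was 174 and 179 Mreads (megareads) in WT and KO ESCs, 32.5 to 47.1 Mreads in WT EBs and 12.96 to 19.6 Mreads in KO EBs. Uhrf1 itself stood at 78.8, 43.8, 36.8 and 41.0 RPKM in WT ESCs and EBs of weeks 1, 2 and 3, and at 45.2, 27.1, 34.6 and 31.0 RPKM in the libraries labelled KO. Its transcript was thus 57.4% of WT in KO ESCs (95% counting interval 56.6 to 58.2%) and 94.1% of WT at week 2 (89.5 to 98.9%). An RPKM over the whole gene does not check a deletion of part of it, and KO below names the libraries so labelled.

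In ESCs the clusters were near silent, and in EBs they were on at modest levels. The summed Hox RPKM was 3.26 in WT ESCs and 3.77 in KO ESCs, and no member reached RPKM 1 in either. In WT EBs the sum was 39.5 at week 1, 28.5 at week 2 and 88.8 at week 3. In KO EBs it was 38.3, 71.4 and 45.7. The WT libraries were therefore highest at week 3 and the KO libraries at week 2. Members at RPKM 1 or more numbered 13, 11 and 27 in WT EBs of weeks 1 to 3, and 15, 20 and 18 in KO EBs. Across all libraries 30 members reached RPKM 1 and 14 reached RPKM 3. The other 9 (Hoxa6, Hoxa7, Hoxb13, Hoxc9, Hoxc11, Hoxc12, Hoxc13, Hoxd1 and Hoxd4) stayed below 1 in every library. In ESCs the higher levels included those of Hoxc13 (0.596 RPKM in WT, 0.851 in KO) and Hoxb13 (0.461 and 0.364). The ESC plates were coated with gelatin or with feeder fibroblasts; 14 embryonic fibroblast markers summed to 24.8 and 21.0 RPKM in WT and KO ESCs, against 110 to 1834 RPKM in EBs.

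**Figure D1:**
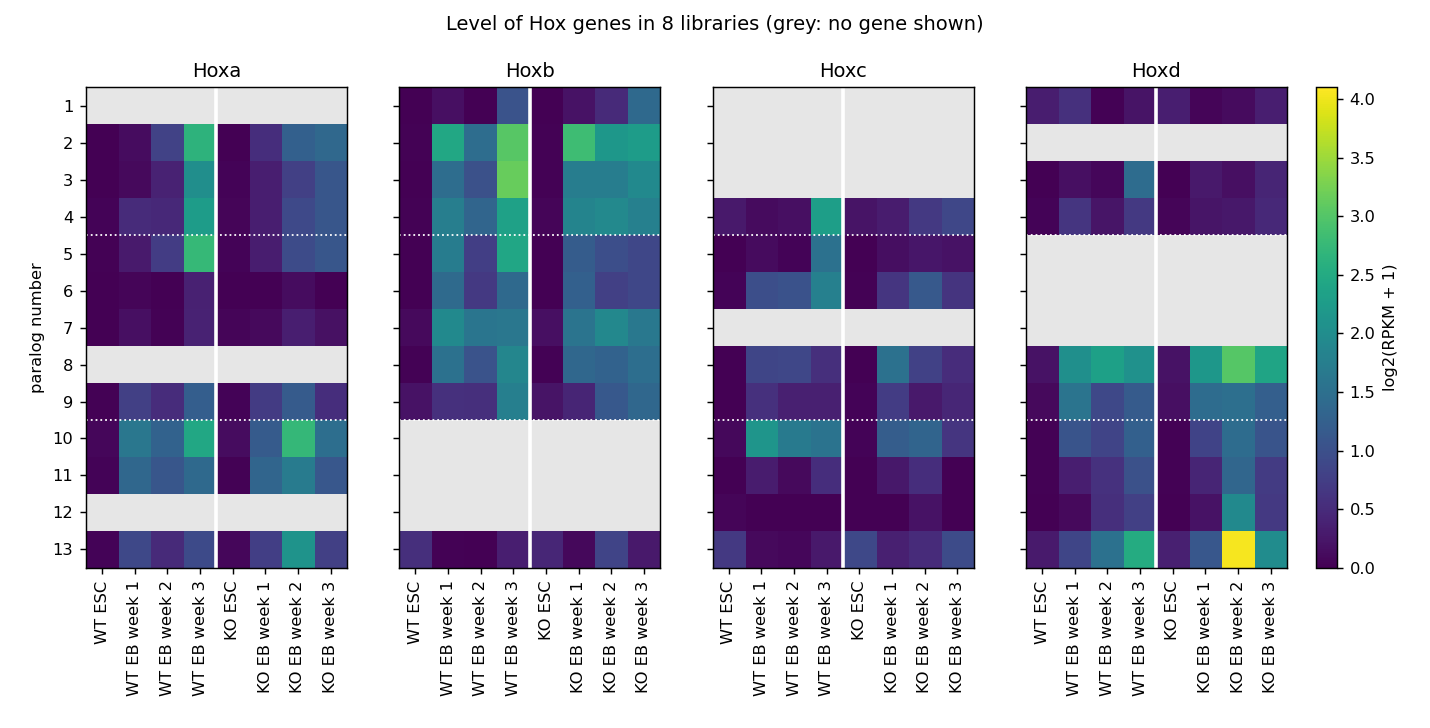
Level of the Hox genes, as log2(RPKM + 1), in the 8 libraries (columns, 1 library each), with 1 panel per cluster and the paralog number on the vertical axis; dotted lines divide paralogs 1-4, 5-9 and 10-13, and grey marks places with no gene shown. ESC columns are dark in both genotypes, the low-numbered genes are brightest in WT EBs of week 3, and the brightest cell is Hoxd13 in KO EBs of week 2 (15.6 RPKM).

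Position along the cluster divided the members by the library in which each was highest. Of the 12 members in paralogs 1-4, 9 were highest in WT EBs of week 3, and of the 15 in paralogs 5-9, 9 were. Of the 12 in paralogs 10-13, 10 were highest in KO EBs of week 2 and none in WT EBs of week 3. Over all 39 members, 18 were highest in WT week 3, 11 in KO week 2, 5 in WT week 1, 3 in KO week 3 and 2 in KO week 1. The 10 include Hoxb13, Hoxc11 and Hoxc12, which stayed below RPKM 1 in every library. Among members that reached RPKM 1, KO week 2 was highest for 7 of paralogs 10-13, and WT week 1 for 1. WT week 3 was highest for 8 such members of paralogs 1-4 and 7 of paralogs 5-9. How all genes of the expression table divide by highest library was not counted. These are descriptions of single libraries, with no test.

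Among the 3′ genes, Hoxb2, Hoxb3 and Hoxb4 were on from week 1, and the Hoxa genes only later. Hoxb2, which acts in the hindbrain, stood at 0.0185, 4.48, 1.75 and 7.17 RPKM in WT ESCs and EBs of weeks 1, 2 and 3, and at 0.0143, 6.06, 3.52 and 3.81 in KO. Hoxb3 stood at 0.0017, 1.76, 1.01 and 7.88 RPKM in WT and at 0.0133, 2.33, 2.34 and 2.87 in KO. Hoxb4, a regulator also known from blood stem cells, stood at 0.0178, 2.36, 1.52 and 4.09 RPKM in WT and at 0.0430, 2.59, 2.80 and 2.45 in KO. All 3 had a dip at week 2 in WT, and Hoxb3 and Hoxb4 varied little between the KO weeks. Hoxa2, which sets the identity of the second branchial arch, stood at 0.0067, 0.0983, 0.751 and 5.29 RPKM in WT and at 0.0097, 0.447, 1.39 and 1.62 in KO. Hoxa3, needed for thymus and parathyroid, stood at 0.0090, 0.0743, 0.312 and 3.08 RPKM in WT and at 0.0282, 0.270, 0.716 and 1.13 in KO. Hoxa4 stood at 0.0239, 0.423, 0.382 and 3.79 RPKM in WT and at 0.0423, 0.265, 0.878 and 1.15 in KO. In each of these Hoxa genes the WT week 3 library was by far the highest, and the KO libraries stayed below 2 RPKM. Hoxc4, the most 3′ gene of its cluster, stood at 0.213, 0.0868, 0.126 and 3.91 RPKM in WT and at 0.157, 0.237, 0.601 and 0.826 in KO.

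Among the central genes, Hoxa5 and Hoxb5 passed 4 RPKM only in WT week 3, and Hoxd8 was on in every EB library. Hoxa5, which acts in lung and neck vertebrae, stood at 0.0126, 0.231, 0.655 and 5.73 RPKM in WT and at 0.0243, 0.252, 0.917 and 1.14 in KO. Hoxb5, a gene of the enteric nervous system, stood at 0.0031, 2.28, 0.697 and 4.37 RPKM in WT, and in KO it was listed at 0 in ESCs and stood at 1.29, 0.989 and 0.839 in EBs. Hoxd8 stood at 0.150, 3.13, 4.01 and 3.19 RPKM in WT and at 0.147, 3.49, 7.14 and 4.26 in KO. Hoxd8 was above 3 RPKM in all 6 EB libraries, with its peak at week 2 in both genotypes.

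Among the 5′ genes, Hoxd13, Hoxa13 and Hoxa10 had a single high KO library, week 2. Hoxd13, which patterns the digits and the genital tubercle, stood at 0.224, 0.813, 1.89 and 4.75 RPKM in WT and at 0.285, 1.17, 15.6 and 2.99 in KO. Hoxa13, its partner in distal limb, hindgut and urogenital tract, stood at 0.0287, 0.857, 0.407 and 0.884 RPKM in WT and at 0.0509, 0.700, 3.29 and 0.710 in KO. Hoxa10, which patterns the lumbar region and the uterus, stood at 0.0521, 2.07, 1.44 and 4.49 RPKM in WT and at 0.0943, 1.25, 5.62 and 1.78 in KO. Hoxc10 ran the other way, with its highest level in WT week 1. It stood at 0.0615, 3.42, 2.22 and 1.95 RPKM in WT and at 0.0298, 1.32, 1.496 and 0.544 in KO, and was the only one of these 14 genes that was lower in KO in every library pair. The remaining 16 members that passed RPKM 1 peaked between 1.33 RPKM (Hoxa9, WT week 3) and 2.87 RPKM (Hoxd12, KO week 2).

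**Figure D2:**
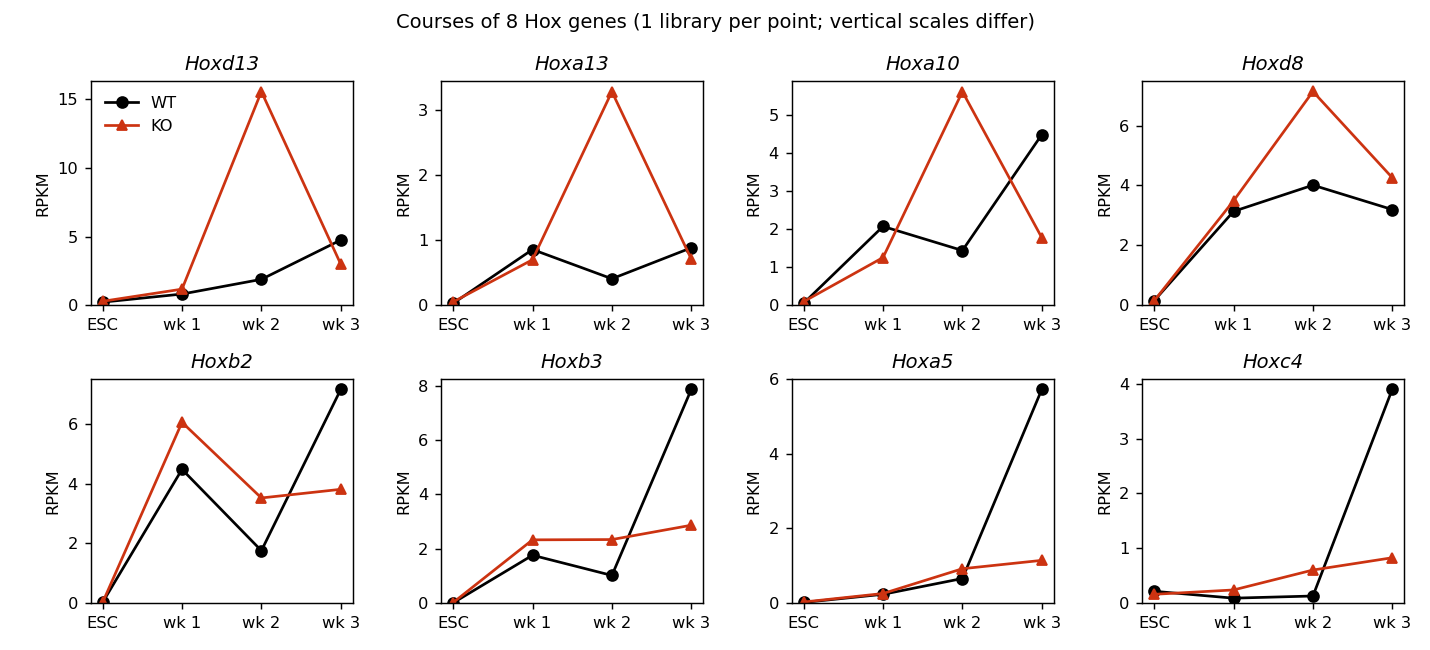
RPKM of 8 Hox genes in WT (black circles) and KO (red triangles) ESCs and EBs of weeks 1 to 3, 1 library per point, with a vertical scale of its own in each panel. Hoxd13, Hoxa13, Hoxa10 and Hoxd8 peak in the KO library of week 2, and Hoxb2, Hoxb3, Hoxa5 and Hoxc4 peak in the WT library of week 3.

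Promoter sequence was available for 22 of the 39 members in RefSeq (build GRCm38.p6, 250 bases before to 50 after the start), and 6 are shown because they belong to the genes that separated the libraries most: Hoxd13, Hoxd12 and Hoxa13 at week 2, and Hoxa5, Hoxc4 and Hoxd3 at week 3. CG dinucleotides, where DNA methylation sits, are in capitals and all other bases in lower case, 5′ to 3′ on the strand of the gene.
Hoxd13: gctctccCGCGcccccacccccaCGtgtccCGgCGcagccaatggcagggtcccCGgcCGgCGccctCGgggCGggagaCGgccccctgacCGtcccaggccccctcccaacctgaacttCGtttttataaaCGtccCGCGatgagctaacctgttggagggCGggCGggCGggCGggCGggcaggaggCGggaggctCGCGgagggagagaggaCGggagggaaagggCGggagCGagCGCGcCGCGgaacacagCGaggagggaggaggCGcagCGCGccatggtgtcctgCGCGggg
Hoxd12: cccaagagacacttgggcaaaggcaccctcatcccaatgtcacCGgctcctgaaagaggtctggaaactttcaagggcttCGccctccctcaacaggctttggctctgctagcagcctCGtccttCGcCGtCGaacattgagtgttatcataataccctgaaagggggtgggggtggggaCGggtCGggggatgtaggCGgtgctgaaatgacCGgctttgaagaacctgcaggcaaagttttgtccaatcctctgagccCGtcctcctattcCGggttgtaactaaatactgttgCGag
Hoxa13: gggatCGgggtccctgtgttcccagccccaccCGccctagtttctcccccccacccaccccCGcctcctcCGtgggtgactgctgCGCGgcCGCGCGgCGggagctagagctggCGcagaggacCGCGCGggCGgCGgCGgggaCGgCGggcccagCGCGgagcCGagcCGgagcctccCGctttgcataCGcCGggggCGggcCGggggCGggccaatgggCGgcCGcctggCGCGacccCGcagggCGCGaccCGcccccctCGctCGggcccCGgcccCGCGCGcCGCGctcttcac
Hoxa5: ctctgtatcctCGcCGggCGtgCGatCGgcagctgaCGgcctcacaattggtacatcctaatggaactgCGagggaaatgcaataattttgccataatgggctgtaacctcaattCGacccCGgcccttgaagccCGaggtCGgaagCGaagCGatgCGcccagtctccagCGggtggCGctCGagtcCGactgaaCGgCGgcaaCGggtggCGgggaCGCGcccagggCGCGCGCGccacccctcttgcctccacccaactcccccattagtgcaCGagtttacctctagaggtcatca
Hoxc4: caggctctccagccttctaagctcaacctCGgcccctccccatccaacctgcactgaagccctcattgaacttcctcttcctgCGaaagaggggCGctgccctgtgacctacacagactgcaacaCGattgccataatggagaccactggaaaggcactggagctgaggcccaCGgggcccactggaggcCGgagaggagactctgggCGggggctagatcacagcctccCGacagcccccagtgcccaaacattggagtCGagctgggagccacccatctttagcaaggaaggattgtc
Hoxd3: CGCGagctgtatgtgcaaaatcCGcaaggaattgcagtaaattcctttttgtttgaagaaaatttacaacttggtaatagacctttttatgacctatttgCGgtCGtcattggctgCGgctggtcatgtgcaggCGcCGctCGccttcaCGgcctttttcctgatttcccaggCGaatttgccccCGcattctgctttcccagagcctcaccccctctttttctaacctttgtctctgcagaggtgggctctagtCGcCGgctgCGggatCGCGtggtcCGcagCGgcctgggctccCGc
These promoters lie on GRCm38.p6 at chr2:74667975-74668274 (+) for Hoxd13, chr2:74674763-74675062 (+) for Hoxd12, chr6:52260831-52261130 (-) for Hoxa13, chr6:52204538-52204837 (-) for Hoxa5, chr15:103034145-103034444 (+) for Hoxc4 and chr2:74711743-74712042 (+) for Hoxd3. They hold 37, 13, 45, 29, 9 and 20 CG dinucleotides in that order. Of these 6, the paralog 13 genes held the most and Hoxd12 and Hoxc4 the fewest. Over the 24 promoters of the 22 matched members the count ranged from 4 to 45 with a median of 14.5, against a median of 7 over all 32851 promoters of the table. The median was 12 for paralogs 1-4, 13 for paralogs 5-9 and 21 for paralogs 10-13. The Cdx core TTTAT, read on both strands, was in 9 of the 24 promoters (37.5%) and in 40.0% of all promoters; the stretch before the start of Hoxd13 holds it on both strands in overlapping letters. A pair of retinoic acid receptor core sites (AGGTCA or AGTTCA, repeated after 5 bases, both strands) was in none of the 24 and in 0.0396% of all promoters, which says only that these letters are not in this window.

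From ESCs to EBs the clusters were switched on in both genotypes. With the genotypes taken as repeats (limma on log2(RPKM + 1), 3 EB stages against ESC, adjusted p under 0.05 over 13249 genes), 24 members entered, all through their EB levels, and 21 rose while none fell. Over all genes tested 43.9% rose and 28.7% fell. Hoxd8 rose by 2.14 on the log2 scale (SE 0.17, adjusted p = 0.000246, limma), Hoxb2 by 2.35 (SE 0.29, adjusted p = 0.000981, limma) and Hoxb7 by 1.58 (SE 0.17, adjusted p = 0.000588, limma). With no filter on low values, so that all 39 members entered, 20 rose and 1 fell (Hoxc13), beside 6147 higher and 4132 lower of all 18092 genes in that fit. Without the WT ESC library, or without the KO ESC library, 9 members rose, since 1 ESC library was then left.

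The first step, from ESCs to week 1, took the Hoxb cluster furthest. Between single libraries, past 1.5-fold on log2(RPKM + 1), 13 members were higher at week 1 in WT and 15 in KO, none was lower, and 33.7% and 34% of all genes tested were higher. These members could be counted only because they reached RPKM 1 in EBs. Over all 39, 35 stood above ESCs in WT and 34 in KO, beside 9095 and 8988 of all 20215 genes. The summed Hoxb RPKM went from 0.747 to 17.9 in WT and from 0.738 to 17.8 in KO, or 45.3% and 46.3% of all Hox RPKM at week 1. Hoxb2 was the highest member of both week 1 libraries.

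After week 1 the genotypes took different courses. From week 1 to week 2, WT had 1 member higher (Hoxd13) and 4 lower (Hoxb2, Hoxb5, Hoxb6 and Hoxd9) of 15 tested, beside 21.3% and 10% of all genes tested. KO had 9 higher and 2 lower (Hoxb2 and Hoxc8) of 23, beside 21.2% and 7.31%, and 6 of the 9 were paralogs 10-13 (Hoxa10, Hoxa13, Hoxd10, Hoxd11, Hoxd12 and Hoxd13). From week 2 to week 3, WT had 20 higher and 0 lower of 27, beside 13.2% and 10.1%, with all 10 tested members of paralogs 1-4 higher. KO had 2 higher, among them Hoxb1, and 9 lower of 24, beside 7.19% and 7.31%, and 7 of the 9 lower members were paralogs 10-13. Many members entered these counts only through their higher library. In WT, 27 were at RPKM 1 or more at week 3 and 11 at week 2, and of paralogs 1-4, 10 and 3. Over all 39 members, 35 stood higher and 3 lower at WT week 3 than at week 2. Over all 20215 genes, 9577 stood higher and 7782 lower. The summed RPKM of paralogs 1-4 in WT went from 6.54 to 40.6 between weeks 2 and 3, and that of paralogs 10-13 in KO went from 7.77 to 36.2 and back to 10.7 over the 3 weeks. These steps use the same 8 libraries as the comparisons of KO with WT and are not separate evidence. Taken over both genotypes, weeks 2 and 3 against week 1 gave 0 of 24 members past an adjusted p of 0.05 in limma, with 6 higher at an unadjusted p under 0.05 (Hoxa2, Hoxa3, Hoxa5, Hoxb1, Hoxb9 and Hoxd13), beside 17.5% of all genes called higher and 7.43% called lower. Without the WT week 2 library 2 members were called higher (Hoxb9 and Hoxd13), and without the KO week 3 library 1 was (Hoxa2).

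**Figure D3:**
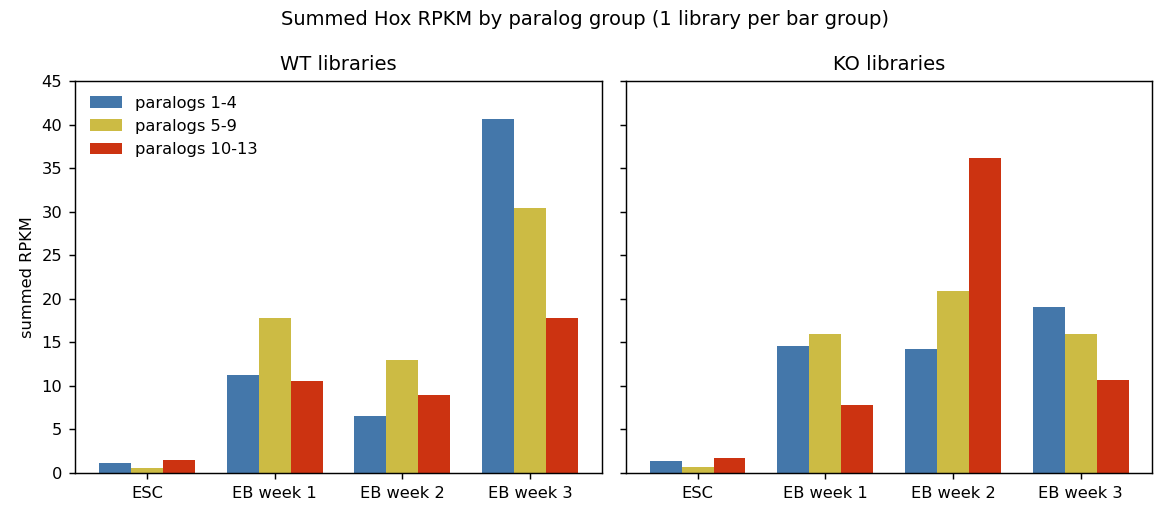
Summed RPKM of paralogs 1-4 (blue), 5-9 (yellow) and 10-13 (red) in the WT and KO libraries, 1 library per group of bars. Paralogs 1-4 are highest in WT week 3 (40.6 RPKM), and paralogs 10-13 in KO week 2 (36.2 RPKM).

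Between KO and WT ESCs no Hox gene was called at 1.5-fold on log2(RPKM + 1). None of the 39 members reached RPKM 1 in either library, so none entered the count, beside 3.84% of all genes tested higher and 2.29% lower in KO ESCs. With no filter on low values 0 were higher and 0 lower, beside 2.22% and 1.28% of 20215 genes. Adding 1 to values this low leaves little room for a 1.5-fold call, so these counts could hardly show a difference. On RPKM itself some members were past 1.5-fold, in both directions and at very low levels. Hoxb4 stood at 0.0178 in WT and 0.0430 in KO, and Hoxc10 at 0.0615 and 0.0298. Hoxc13 had a ratio of KO to WT of 1.43 (95% exact interval 1.21 to 1.68, from estimated reads and covering counting error only, as all intervals below). The median log2 difference over the 39 members was 0.01.

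At week 1 the libraries differed in few Hox genes. Past 1.5-fold on log2(RPKM + 1), 2 of 16 tested members were higher in KO and 1 was lower, beside 8.37% and 6.22% of all genes tested, so the share was near the background. Hoxc8, a gene of the trunk, stood at 0.811 RPKM in WT and 1.88 in KO, a ratio of 2.32 (1.62 to 3.27). Hoxc10 was 2.60-fold lower in KO (1.79 to 3.80). The median over all 39 members was 0.

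At week 2, 15 of 20 tested members were higher in KO and 0 were lower, beside 10% of all genes tested called higher and 6.42% lower. Over all 39 members, tested or not, 36 stood above WT, beside 9939 of all 20215 genes. The median difference over the 39 was 0.44 on the log2(RPKM + 1) scale, against 0 over all genes and 0.05 over genes tested. With a pseudocount of 0.1 it was 1.02, against 0.05 over genes tested. The posterior end led: 7 of 8 tested members of paralogs 10-13 were higher, with a summed RPKM of 8.97 in WT and 36.2 in KO, a ratio of 4.04. Paralogs 1-4 summed to 6.54 and 14.3 RPKM (ratio 2.18, 4 of 5 tested members higher) and paralogs 5-9 to 12.99 and 20.9 (ratio 1.61, 4 of 7). Some members entered these counts only through the KO library, where 20 were at RPKM 1 or more, against 11 in WT. For paralogs 10-13 these numbers were 8 and 4. Tested or not, 11 of 12 members of paralogs 10-13 stood above WT, 12 of 12 of paralogs 1-4 and 13 of 15 of paralogs 5-9. The medians over all members were 0.69, 0.47 and 0.23 in that order. Hoxd13 carried much of the posterior sum: without it in both libraries the ratio for paralogs 10-13 was 2.91, and that for Hoxd went from 3.55 to 2.26. By cluster, Hoxa summed to 5.96 and 17.9 RPKM (3.00-fold), Hoxb to 9.13 and 16.9 (1.86-fold) and Hoxc to 4.67 and 5.45 (1.17-fold), with 0 of 2 tested Hoxc members past 1.5-fold.

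From Hoxd8 to Hoxd13 the week 2 ratio of KO to WT grew with the paralog number. It was 1.78 for Hoxd8 (1.53 to 2.07), 2.15 for Hoxd9 (1.52 to 3.07), 2.20 for Hoxd10 (1.58 to 3.05), 3.10 for Hoxd11 (2.29 to 4.21), 6.11 for Hoxd12 (4.27 to 8.87) and 8.26 for Hoxd13 (6.92 to 9.89). Neighbours in this order overlapped in their intervals from Hoxd8 to Hoxd11 and from Hoxd12 to Hoxd13, while Hoxd12 lay above Hoxd11 with no overlap. The other Hoxd genes, Hoxd1, Hoxd3 and Hoxd4, were at 0.0169 to 0.197 RPKM in both libraries and outside this order, with ratios of 4.98 (0.399 to 260.9), 2.32 (0.672 to 7.72) and 1.103 (0.444 to 2.63). Exons of Hoxd10 and Hoxd11 overlap the model Gm20440, and Hoxd12 and Hoxd13 overlap no other gene. In Hoxa the ratio was 8.07 for Hoxa13 (5.42 to 12.1), 3.90 for Hoxa10 (3.14 to 4.88) and 2.00 for Hoxa11 (1.51 to 2.63), so that the order did not follow position there. In Hoxb the members past 1.5-fold were Hoxb2, Hoxb3, Hoxb4 and Hoxb9, with ratios of 1.84 to 2.58.

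**Figure D4:**
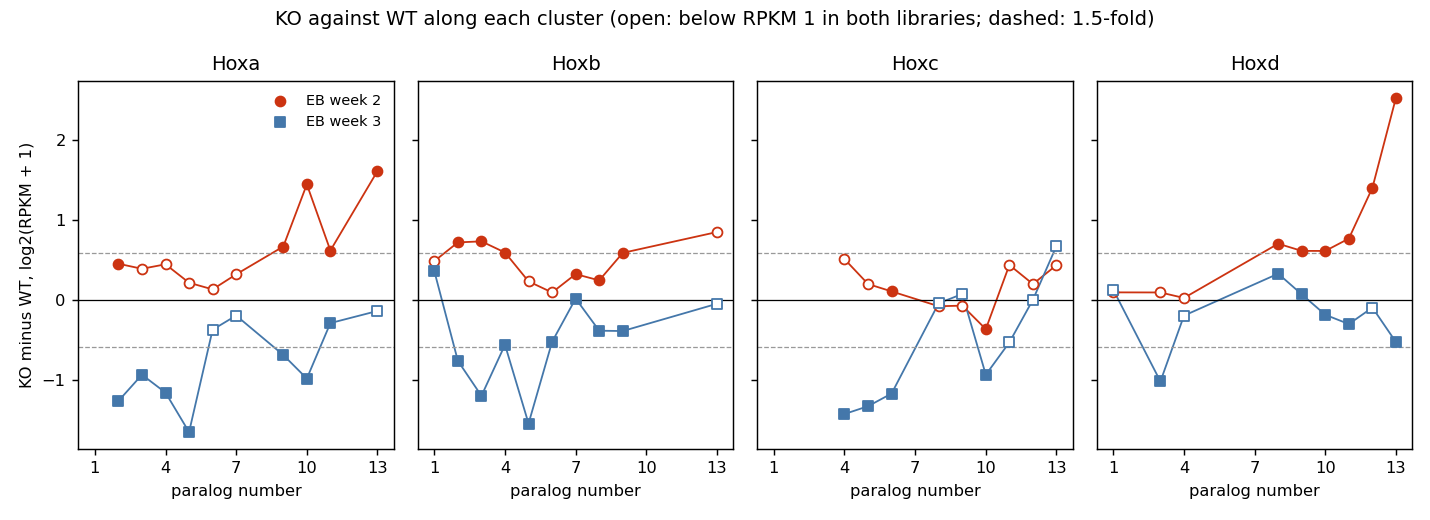
Difference between KO and WT in log2(RPKM + 1) against paralog number in each cluster, at week 2 (red circles) and week 3 (blue squares); open symbols are members below RPKM 1 in both libraries and dashed lines mark 1.5-fold. At week 2 the red points of Hoxd climb from Hoxd8 to 2.52 at Hoxd13, and at week 3 the blue points are lowest at Hoxa5 (-1.65), Hoxb5 (-1.54) and Hoxc4 (-1.43).

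At week 3 the direction was the opposite: 14 of 27 tested members were lower in KO and 0 were higher, beside 7.69% of all genes tested called lower and 7.65% higher. Over all 39 members 30 stood below WT, beside 8585 of all 20215 genes. The median difference over the 39 was -0.39, against 0 over all genes and 0.02 over genes tested. With a pseudocount of 0.1 it was -0.65, against 0.02 over genes tested. Anterior genes led, with a median difference over all members of -0.85 in paralogs 1-4, -0.39 in paralogs 5-9 and -0.24 in paralogs 10-13. Of paralogs 1-4, 7 of 10 tested members were lower (summed RPKM 40.6 in WT and 19.0 in KO, 2.14-fold lower), of paralogs 5-9, 5 of 11 (30.4 and 16.0, 1.90-fold lower), and of paralogs 10-13, 2 of 6 (17.8 and 10.7, 1.67-fold lower). Some members entered these counts only through the WT library, where 27 were at RPKM 1 or more, against 18 in KO. By paralog group, in that order, these numbers were 10 and 8, 11 and 6, and 6 and 4. Tested or not, 9 of 12, 11 of 15 and 10 of 12 members stood below WT. By cluster, Hoxc was 3.09-fold lower, Hoxa 2.44-fold, Hoxb 1.85-fold and Hoxd 1.24-fold.

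Among tested members the 6 widest ratios at week 3 lay at paralogs 3 to 6, though not every gene there was far lower. Hoxc5 stood at 1.90 RPKM in WT and 0.155 in KO, 12.3-fold lower (6.45 to 30.4, on about 8 estimated reads in KO). Hoxb5 was 5.20-fold lower (3.80 to 7.24), Hoxa5 5.02-fold (3.61 to 7.11) and Hoxd3 5.01-fold (3.20 to 7.91). Hoxc4 was 4.73-fold lower (3.25 to 6.90) and Hoxc6 4.61-fold (2.83 to 8.53). These 6 genes of 4 clusters were all near 1 RPKM or below in KO. Hoxa4, Hoxa2, Hoxb3 and Hoxa3 were 3.31-, 3.27-, 2.75- and 2.72-fold lower. Hoxb4 (4.09 RPKM in WT and 2.45 in KO) and Hoxb6 (1.64 and 0.832) were not past 1.5-fold on the log2(RPKM + 1) scale. At the posterior end Hoxc10 was 3.59-fold lower (2.26 to 6.26) and Hoxa10 2.53-fold lower (1.99 to 3.22), whereas Hoxd13, at 4.75 and 2.99 RPKM, was not past 1.5-fold on the log2(RPKM + 1) scale. Hoxb1 and Hoxd8 stood higher in KO than in WT, with ratios of 1.54 and 1.33, and neither passed the threshold.

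The lists of members higher in KO at week 2 and lower at week 3 shared Hoxa9, Hoxa10, Hoxb2 and Hoxb3, which is 26.7% of the 15 higher at week 2 and 28.6% of the 14 lower at week 3. Over all genes the lists shared 144 genes, 11.3% of 1270 and 14.4% of 1003. With no threshold, 28 of the 39 members (71.8%) stood above WT at week 2 and below it at week 3, beside 18.2% of all 20215 genes. Of the 21 members whose exons overlap no other gene, 7 of 8 tested were higher in KO at week 2 and 5 of 11 tested were lower at week 3. The median differences over all 21, tested or not, were 0.44 and -0.14. Averaged over the 4 stages, the genotype effect was called in 0 of 24 members and in 0 of 13249 genes (0% of all genes tested, limma, adjusted p under 0.05). At an unadjusted p under 0.05, 1 member was higher in KO and 1 was lower, Hoxc10, with a difference of -0.57 on the log2 scale (SE 0.19, adjusted p = 0.284, limma). The stage is the block in this model, so a difference of opposite sign at weeks 2 and 3 enters its residual spread.

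Genes around the clusters and the regulators of Hox expression were counted the same way. Of 20 genes other than miRNAs within 250 kb of the clusters, 14 were tested at week 2, of which 2 were higher in KO (Atp5g1, 64.3 and 98.7 RPKM, and Calcoco2, 0.723 and 3.62) and 0 lower. At week 3, 13 were tested, 1 was higher (Calcoco2, 6.41 and 16.6 RPKM) and 0 lower, with a median of 0.21. At week 1, 15 were tested and 2 were lower in KO, Gip (3.39 in WT, listed at 0 in KO) and Nfe2 (29.1 and 11.1). Among all genes tested, 8.37% were higher and 6.22% lower in KO at week 1. At week 2 these shares were 10% and 6.42%, and at week 3 they were 7.65% and 7.69%. The Evx genes beside Hoxa and Hoxd stayed below RPKM 1 in all 8 libraries.

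Cdx2, which activates central and posterior Hox genes, stood at 5.81, 7.03 and 1.14 RPKM in WT EBs of weeks 1, 2 and 3, and at 1.34, 3.02 and 1.79 in KO. It was past 1.5-fold lower in KO at weeks 1 and 2. The summed RPKM of paralogs 10-13 in WT and KO was 10.5 and 7.77 at week 1, and 8.97 and 36.2 at week 2. Of the other ParaHox genes only Pdx1 was tested, at week 3 (1.19 and 0.181 RPKM). In the retinoic acid list of 20 genes, 6 of 16 tested were higher and 1 lower (Rbp4, the retinol carrier of plasma, 926 and 169.7 RPKM) in KO at week 2, and 3 of 18 were higher and 2 lower at week 3. At week 2, Cyp26a1, which degrades retinoic acid, stood at 1.99 RPKM in WT and 9.73 in KO, Stra8, a gene induced by it, at 1.46 and 17.0, and Crabp1, which binds it, at 12.1 and 41.6. At week 3 the synthesizing enzymes Aldh1a1 (20.8 and 43.9) and Aldh1a2 (8.18 and 16.6) were higher in KO and Cyp26b1, another degrading enzyme, was lower (7.88 and 2.01). Of the 18 axial progenitor and trunk genes, 2 were higher and 1 lower of 10 tested at week 2, and 6 were higher and 1 lower of 15 at week 3, among them Tbx6 (0.194 and 1.49) and Wnt5b (1.78 and 4.17). Beside both lists, 10% of all genes tested were higher and 6.42% lower in KO at week 2, and 7.65% and 7.69% at week 3.

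Hox cofactors and Polycomb genes were counted next. Of all genes tested, 3.84% were higher and 2.29% lower in KO ESCs, and 8.37% and 6.22% at week 1. At week 2 the shares were 10% and 6.42%, and at week 3 they were 7.65% and 7.69%. Of the 9 TALE genes, 1 of 8 tested was higher in KO at week 2 (Meis1, 14.1 and 22.7 RPKM) and 3 of 9 were lower at week 3 (Meis1, 25.2 and 12.4, Meis2, 22.6 and 13.6, and Pbx3, 19.2 and 12.4). Meis1 thus had the direction of the Hox sum at weeks 2 and 3. At week 1 it also stood higher in KO (14.1 and 21.3 RPKM), when the Hox sums were 39.5 and 38.3. The list did not move together at week 2: Pbx2 (31.4 and 20.7) and Pbx3 (21.7 and 17.2) stood lower in KO. The median over the 8 tested TALE genes was 0.13 on the log2 scale. Of 19 chromatin regulators in the table, all were tested and none passed 1.5-fold at the ESC stage or week 1; 4 were higher at week 2 (Cbx7, Cbx8, Bmi1 and Phc1, with 2.40 and 4.82 RPKM for Cbx7) and 1 at week 3 (Cbx8, 1.78 and 3.91).

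EBs mix many cell types, and in bulk RNA fewer cells of a type and less RNA per cell cannot be told apart. Beside the marker counts that follow, 10% of all genes tested were higher and 6.42% lower in KO at week 2. At week 3 these shares were 7.65% and 7.69%. Of 14 embryonic fibroblast markers, 4 were higher and 0 lower in KO at week 2, and 5 and 0 at week 3, with summed RPKM of 1468 in WT and 1834 in KO at week 2 and 1149 and 1342 at week 3. Paralog 13 genes act in hindgut, intestine and urogenital epithelium. Of 13 genes of these epithelia, 3 were higher and 3 lower of 9 tested at week 2. The higher ones included Upk1b (10.2 and 44.0 RPKM), and the lower ones were Cdx2 (7.03 and 3.02), Vil1 and Lgr5. At week 3, 1 was higher and 4 were lower of 10, with Fabp1 among the lower (40.8 in WT and listed at 0 in KO). Of 12 limb and posterior mesenchyme genes, 2 were higher and 1 lower of 10 at week 2, the lower one being Shh (18.8 and 8.23), and 1 was higher and 2 lower of 10 at week 3. Of 10 neural tube progenitor genes, 1 was higher and 2 lower of 6 at week 3 (Pax3, 4.81 and 1.23, and Msx3, 3.76 and 0.89), and of 9 motor neuron genes 1 was higher and 1 lower of 3. Of 14 head and forebrain genes, which lie ahead of the Hox domain, 3 were higher and 0 lower of 10 at week 3 (Otx1, 0.512 and 3.76). Of 10 paraxial mesoderm genes, 1 was higher and 1 lower of 6 at week 3, and of 10 blood progenitor genes 0 were higher and 1 lower of 8. The part of these markers in the Hox differences was not tested.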

How the data were processed

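The authors aligned mRNA reads of 8 libraries (poly(A) RNA, random primers, no strand kept) to mm9 and computed RPKM over RefSeq genes; the submitters' processing notes name TopHat 1.1.4, Bowtie 0.12.7, SAMtools 0.1.18 and Cufflinks 1.1.0. The deposited values are log2(RPKM + 1), which were turned back to RPKM. Gene positions came from GENCODE M1 (mm9), and promoters from RefSeq. Depth (12.96 to 179 megareads) was estimated from the smallest step of RPKM × length over 3324 genes and served for 95% Clopper-Pearson intervals, which cover counting error only. KO was set against WT at each stage, and each stage against the one before, with 1 library per group and so without a test. Genes at RPKM 1 or more in either library were called at 1.5-fold on log2(RPKM + 1) (pseudocount 1), so folds of low genes are understated there; printed ratios are of RPKM. limma 3.58.1 (R 4.3.3, trend, stage and genotype as terms) tested genes at RPKM 1 or more in 2 libraries, with Benjamini-Hochberg adjustment over all of them; its p-values measure the spread between these libraries. The scripts were tested on simulated data: 93% of 2-fold and 100% of 4-fold changes were recovered at week 2 among 12233 genes by the fold calls, and 64% and 87% by limma for genotype among 13249 genes, with 10 false calls in each. The simulation for the fold calls held counting error only. It therefore gives no rate of false calls between single EB libraries, which also differ by culture and preparation. Alternatives were the pseudocount, the filter, 2 scalings, the threshold and leaving out each library. Members at RPKM 3 or more in a library are given in all libraries, and of the 15 lists up to 4 genes with the largest difference at a stage. The members and lists were chosen with earlier results of these data known. Values of some single genes, though included in counts and sums, are not reported here.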

Additional observations from a re-analysis of the deposited data

Results flagged for a closer look

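In 4 Hox genes the KO library was past 1.5-fold above WT at week 2 and past 1.5-fold below it at week 3, and the difference between the weeks was not tested, since each is a single pair of libraries. The ratio of KO to WT RPKM was 2.93 at week 2 and 0.335 at week 3 for Hoxa9, 3.90 and 0.396 for Hoxa10, 2.01 and 0.532 for Hoxb2, and 2.31 and 0.364 for Hoxb3. In all 4 the WT level was higher at week 3 than at week 2.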

How the results depend on the processing

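Of the 32 single gene calls between KO and WT, none changed direction under the 6 alternatives tried for them, and 39 of 192 repeats fell short of the threshold. Median-ratio scaling kept 13 of the 15 members higher in KO at week 2 and all 14 lower at week 3. Scaling to an equal RPKM total gave 9 higher at week 2 (all among the 15) and 17 lower at week 3, and it moved the calls over all genes at week 3 from 7.65% higher and 7.69% lower to 5.96% and 10.7%, and at week 2 from 10% and 6.42% to 7.92% and 8.59%. It moved the median of all tested genes to -0.10 at week 3. A 2-fold threshold gave 4 higher at week 2, 9 lower at week 3, and 0 higher and 0 lower at week 1. A filter at RPKM 2 gave 9 higher at week 2 and 0 higher at week 1. A pseudocount of 0.1 gave 3 lower at week 1, and in WT 8 lower from week 1 to week 2. With no filter 1 member was higher at week 3 (Hoxc13), 1 fell from ESCs to EBs (Hoxc13), and 1 was higher (Hoxb1) and 1 lower (Hoxc9) in late EBs. A pseudocount of 0.1 also gave 1 higher in late EBs (Hoxa2). Members with no exon overlap, an alternative chosen after seeing the data, gave 1 higher and 0 lower at week 1, 7 higher at week 2 and 5 lower at week 3 of 21.

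Without its highest member, the share of paralogs 10-13 in the Hox RPKM of a library was 57.6% in place of 46.9% in WT ESCs, 30.02% (26.6%) at week 1, 36.6% (31.5%) at week 2 and 21.96% (20.01%) at week 3, and in KO 30.7% (46.3%), 24.1% (20.3%), 37.0% (50.7%) and 25.7% (23.3%). The member left out was Hoxd13 in KO week 2 and Hoxd8 in WT week 2, so these 2 shares leave out different genes. Without Hoxd13 in both week 2 libraries, the share was 26.6% in WT and 37.0% in KO.

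Leaving out 1 library at a time, 9 to 22 members rose from ESCs to EBs and 0 to 2 were higher in late EBs, and none was called for genotype. With EB stages only, 2 genes were called higher and 4 lower for genotype, none of them a Hox gene. No paired analysis was possible by replicate number, because each group is 1 library and the labels give none; KO and WT are paired by stage in limma. KO EB libraries are shallower than WT ones, so low members are less precise there.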

Other observations

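Of the 21 noncoding RNAs listed for the Hox clusters, 7 were in the table. The hairpin Mir196a-1 of the Hoxb cluster stood at 20.3 and 25.6 RPKM in WT EBs of weeks 1 and 3 and at 24.4 in KO week 2, and was listed at 0 in the other 5 libraries. Mir196b of the Hoxa cluster stood at 59.8 RPKM in KO week 2 and was listed at 0 elsewhere. Hairpins are short beside mRNAs and poly(A) libraries do not capture mature miRNAs, so no fold is given here.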
